A study of Mus musculus with 10 samples.

Results

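Nup210 and 33 other genes of the nuclear pore complex and of nuclear transport were examined in livers of mice lacking both macroH2A histone variants. The list of 34 genes groups the pore by position: membrane, outer ring, inner ring, central channel, cytoplasmic face and nuclear basket, with 6 transport factors. A gene was measured where the array annotation gave a probe set exactly 1 symbol, that of the gene, and where there were several such probe sets the one with the highest mean over all arrays was used. By this rule 30 of the 34 genes were measured, out of 41345 probe sets on the array, of which 25335 carried at least 1 symbol and were tested. Nup35 and Tpr had no such probe set, Nup62 and Nup85 occurred only on a probe set with several symbols, and these 4 genes were not analysed here. The genes were listed with results of these data known, and Nup210 was chosen by its measured difference between the groups, while the others were chosen by function. The values of Nup210 are therefore given as a description, without a test.

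Wild-type mice and macroH2A1 macroH2A2 double knockout mice of strain 129/S6 (taconic) were compared, with 5 livers in each group. All mice were males aged 2 months, fasted overnight for about 16 hours and killed in the morning. Values were log2 expression levels of whole-liver RNA, so that fewer cells of a type and less RNA per cell cannot be told apart. The making of the knockout alleles is not described in the labels, which also do not tie every sample to an animal of its own, so p-values measure only the spread between these samples.

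Nuclear pores are the channels through the nuclear envelope. Membrane nucleoporins anchor the pore where the inner and outer nuclear membranes fuse, ring-shaped scaffolds hold it in shape, and nucleoporins rich in phenylalanine-glycine repeats fill the channel and bind passing transport receptors. Importins and exportins carry cargo through it under the control of the small GTPase Ran. Nup210, also called gp210, is a membrane nucleoporin with a large domain on the lumenal side of the envelope, and is known as one whose amount differs widely between cell types.

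The arrays were alike as a whole. Array medians lay between 6.43 and 6.46 on the log2 scale, and correlations between arrays ran from 0.989 to 0.995. The knocked-out gene Macroh2a1 fell by 0.49 on the log2 scale (SE 0.05, limma adjusted p = 0.00128), from 9.51 to 9.66 in wild-type to 9.02 to 9.18 in double knockout livers. Macroh2a2 ran from 5.86 to 6.55 in wild-type and from 5.99 to 6.44 in double knockout livers, overlapping, with a log2 difference of -0.20 (SE 0.13, limma adjusted p = 0.514). Its mean over all arrays, 6.22, was below the olfactory receptor level given next, so its signal was of background size in both groups and does not check the labels. The position of either probe set against the deleted exons was not analysed here. Olfactory receptor probe sets, which serve as a guide to background in liver, had a 95th percentile of 6.54, and 29 of the 30 measured members lay above it. The exception was Nup188, whose means were 6.03 ± 0.04 for wild type and 6.15 ± 0.10 for double knockout (SD, n = 5 each). Pancreas marker means were high in wild-type replicates 4 and 5 (9.52 and 10.58) and double knockout replicates 1 and 2 (8.40 and 8.60), against at most 6.66 in the other 6 livers.

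Nup210 stood at 8.24, 8.31, 8.36, 8.28 and 8.13 in wild-type replicates 1 to 5 and at 8.90, 8.95, 8.70, 8.90 and 8.79 in double knockout replicates 1 to 5. Every double knockout liver lay above every wild-type liver, with a gap between 8.36 and 8.70. The means were 8.26 ± 0.09 and 8.85 ± 0.10 (SD, n = 5 each), a log2 difference of 0.58 (SE 0.06, 95% interval 0.45 to 0.71), or 1.50-fold. Without each liver in turn the log2 difference ran from 0.55 to 0.62, and without the 4 livers of high pancreas marker mean it was 0.49 (SE 0.07). Nup210 had 1 probe set, so no second one could be set beside it.

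Neither of the other measured membrane nucleoporins was called. Ndc1, which spans the membrane and links it to the inner ring, stood at 8.06, 7.95, 7.92, 7.98 and 7.86 in wild-type and at 7.80, 7.82, 7.75, 7.84 and 7.82 in double knockout livers. Every double knockout liver was below every wild-type liver, by a narrow margin. Its log2 difference was -0.15 (SE 0.04, 95% interval -0.24 to -0.05, limma adjusted p = 0.147), so it was not called. Pom121, a membrane nucleoporin with phenylalanine-glycine repeats, stood at 8.55, 8.64, 8.63, 8.61 and 8.74 in wild-type and at 8.75, 8.61, 8.68, 8.71 and 8.63 in double knockout livers. These values overlapped, with a log2 difference of 0.042 (SE 0.05, 95% interval -0.06 to 0.14, limma adjusted p = 0.745). Their log2 differences of -0.15 and 0.042 stand beside 0.58 for Nup210, a gap that was not tested because Nup210 was listed for its value.

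**Figure D1:**
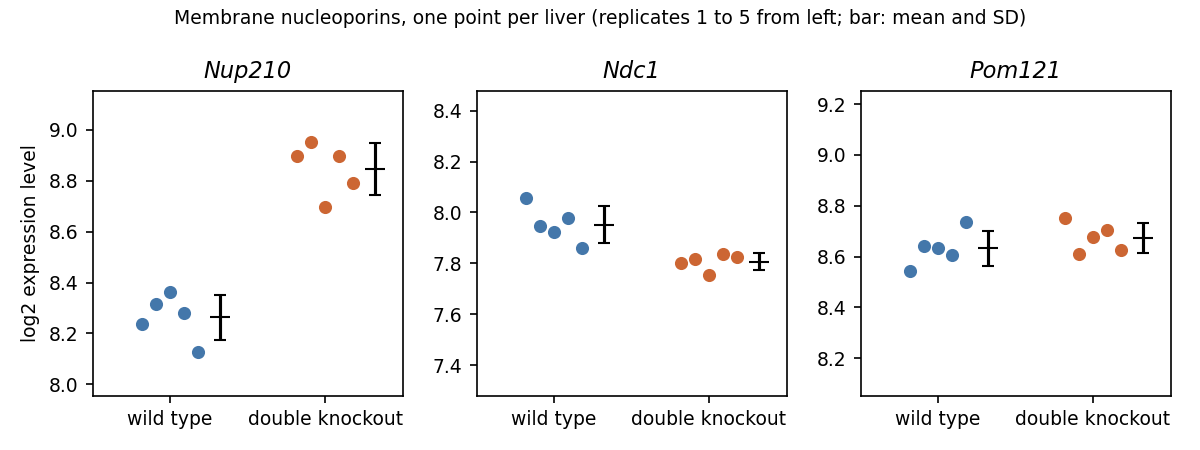
Log2 expression level of Nup210, Ndc1 and Pom121 in each liver, 5 wild type (blue) and 5 double knockout (orange), with the mean and SD as a black bar; each panel has its own vertical axis, all of equal span. The Nup210 groups lie far apart (8.13 to 8.36 against 8.70 to 8.95), the Ndc1 groups lie just apart in the other direction, and the Pom121 groups overlap.

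Upstream sequences of the 3 membrane nucleoporins are shown because these genes share a place in the pore. Nup210 was listed for its difference, and its call is not used as a contrast here. Each is the 250 bases before the start site in the RefSeq promoter table (GRCm38.p6), read 5′ to 3′ on the strand of the gene, with capitals marking matches to a GC box (GGGCGG on either strand).
Nup210, chr6:91116827-91117076, minus strand: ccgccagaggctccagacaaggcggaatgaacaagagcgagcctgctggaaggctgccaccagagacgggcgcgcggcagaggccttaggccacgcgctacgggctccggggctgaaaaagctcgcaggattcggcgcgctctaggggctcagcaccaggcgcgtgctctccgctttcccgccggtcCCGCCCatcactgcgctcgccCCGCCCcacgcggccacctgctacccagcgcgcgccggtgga
Ndc1, chr4:107367797-107368046, plus strand: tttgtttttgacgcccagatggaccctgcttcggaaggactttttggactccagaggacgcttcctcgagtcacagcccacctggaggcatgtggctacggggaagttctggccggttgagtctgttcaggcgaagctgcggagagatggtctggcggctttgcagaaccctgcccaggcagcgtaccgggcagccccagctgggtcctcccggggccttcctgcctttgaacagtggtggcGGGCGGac
Pom121, chr5:135394547-135394796, minus strand: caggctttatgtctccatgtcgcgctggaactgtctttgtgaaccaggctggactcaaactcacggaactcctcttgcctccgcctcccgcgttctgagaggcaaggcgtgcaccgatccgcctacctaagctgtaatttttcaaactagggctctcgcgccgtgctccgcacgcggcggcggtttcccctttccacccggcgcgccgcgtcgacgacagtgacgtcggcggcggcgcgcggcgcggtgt
The table's start sites of Nup210 (91116826) and Pom121 (135394546) lie inside the RefSeq gene spans, which on the minus strand begin at 91118322 and 135404841. Their windows thus lie within the annotated genes, while the Ndc1 start (107368047) is the edge of its gene. Sequence before the outermost starts of Nup210 and Pom121 was not examined. The Nup210 window held 2 GC boxes, at 63 to 58 and 42 to 37 bases before the start. The Ndc1 window held 1, at 8 to 3 bases before it, and the Pom121 window held 0. CpG dinucleotides numbered 30 for Nup210, 14 for Ndc1 and 33 for Pom121, against a median of 6 over the 32851 windows of the table, which also holds windows of noncoding genes and pseudogenes.

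Other motifs were searched on both strands of the same windows. Windows were found for 29 of the 34 genes, 32 windows in all, and Nup43, Nup85, Seh1l, Nup35 and Kpna1 were without one. A gene counted if any of its windows matched, whereas the share of all windows counts each window, so these are unlike measures. At least 1 GC box was present for 19 of these 29 genes (65.5%) and in 32.7% of all windows. A CCAAT box (CCAAT) was present for 12 genes (41.4%, against 33.8% of all windows), an E box (CACGTG) for 5 (17.2% against 6.02%), an ETS core (CCGGAAG) for 6 (20.7% against 6.91%) and a TATA box (TATAAA) for 3 (10.3% against 12.4%). None of these other 4 motifs was present in the Nup210, Ndc1 or Pom121 windows, so of the 5 motifs searched only the GC box differed in number between the 3 windows. A link between GC boxes and the differences between the groups was not tested.

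Across the whole pore the differences were smaller than that of Nup210. In limma, at an adjusted p under 0.05 over the 25335 probe sets, 0.884% of all probe sets were called, with 0.332% in the higher and 0.553% in the lower direction. Nup210 was 1 of the called probe sets, and it was listed for that. Of the other 29 measured members 0 were called in limma. At an unadjusted p under 0.05, 9 of the 29 (31.0%) were higher and 1 (3.45%) was lower, against 7.52% and 7.60% of all tested probe sets, and 8.67% and 10.9% of those above the olfactory 95th percentile. Their log2 differences ran from -0.15 for Ndc1 to 0.27 for Rangap1, with 22 above 0 and a median of 0.042, against a median of -0.003 over all tested probe sets. The 1108 olfactory receptor probe sets, the guide to background, also lay higher in double knockout livers, with 836 above 0, a median of 0.055, and 15.8% higher and 1.08% lower at an unadjusted p under 0.05. Their mean level in wild type was 4.80, against 8.77 for the 29 members. Probe sets above the olfactory 95th percentile, where 28 of the 29 members lay, had a median of -0.010, with 45.7% above 0. The members' median was thus below that of the olfactory probe sets and above that of the probe sets over this level. The part of the background shift in the members' differences was tested only as a covariate in the fit. Besides Nup210, the groups did not overlap for 2 of the 29 members that were higher, Nup98 and Nup214 (6.90%), and for 1 that was lower, Ndc1 (3.45%). Over all tested probe sets these shares were 1.75% and 2.15%.

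**Figure D2:**
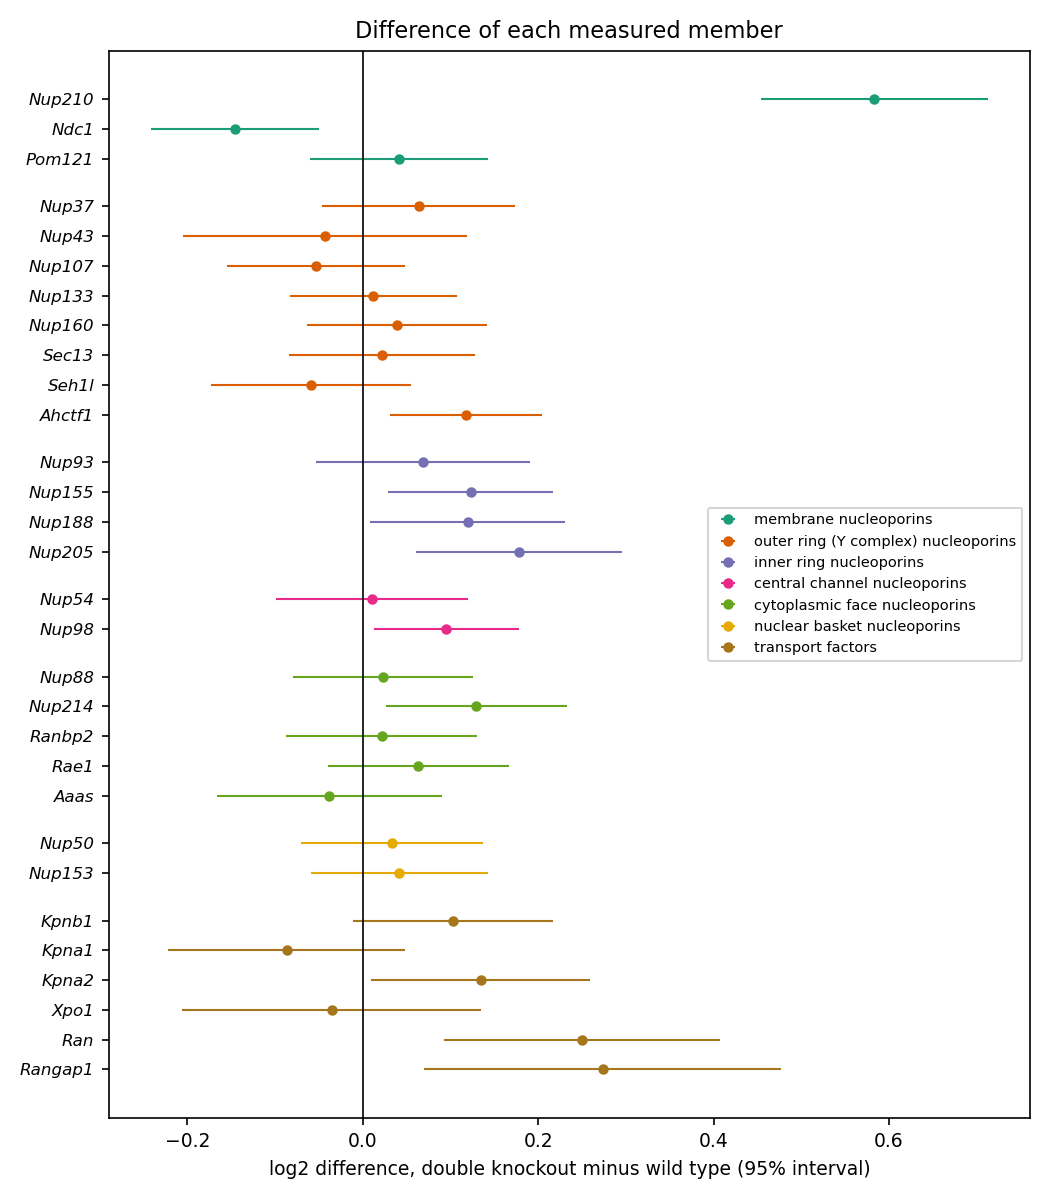
Log2 difference between double knockout and wild-type livers for each of the 30 measured members, with its 95% interval from the limma fit (horizontal bars), coloured by position in the pore. Nup210 at 0.58 stands apart to the right, Rangap1 (0.27) and Ran (0.25) follow, and Ndc1 (-0.15) is farthest to the left.

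Outer ring nucleoporins form the Y-shaped scaffold on both faces of the pore. Of 8 measured members 5 had higher means and 0 were called, with a median log2 difference of 0.017. Ahctf1 (ELYS), which binds chromatin and seeds pore assembly after mitosis, had the lowest p of them. It stood at 8.69, 8.65, 8.66, 8.63 and 8.68 in wild-type and at 8.69, 8.77, 8.79, 8.83 and 8.81 in double knockout livers. Of these, 4 double knockout livers lay above all wild-type livers and replicate 1 lay among them, with a log2 difference of 0.12 (SE 0.04, limma adjusted p = 0.185). The scaffold members Nup37 (0.064), Nup160 (0.039) and Nup133 (0.012) had small positive log2 differences, and Nup107 (-0.053) and Nup43 (-0.043) small negative ones. Sec13, which also serves in the COPII coat of secretory vesicles, had 0.022, and its partner Seh1l had -0.059 on its main probe set and 0.023 on a second one with a mean level of background size. The 7 outer ring members other than Ahctf1 had 95% intervals that included 0, with limma adjusted p from 0.609 to 0.936.

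Inner ring nucleoporins bridge the membrane and the central channel. All 4 measured members were higher on average in the double knockout, the median log2 difference being 0.12, and 0 were called. Nup205, a large scaffold protein, stood at 8.22, 8.14, 8.09, 8.08 and 8.09 in wild-type and at 8.36, 8.18, 8.22, 8.44 and 8.31 in double knockout livers. Replicate 2 of the double knockout livers lay within the wild-type range and the others above it, replicate 3 barely, with a log2 difference of 0.18 (SE 0.05, limma adjusted p = 0.149). Its paralog Nup188 had 0.12 (SE 0.05), at a level near background, and 0.045 with the macrophage markers described further on as a covariate. Nup155, which contacts the membrane, had 0.12 (SE 0.04), and 0.080 with the olfactory receptor mean as a covariate. Nup93, which joins the inner ring to the channel, had 0.069 (SE 0.06). Limma adjusted p for these 3 genes ran from 0.203 to 0.621. The mean of the 4 genes per liver was 7.67 to 7.72 in wild-type and 7.78 to 7.86 in double knockout livers, so the groups of means did not overlap. This was not particular to the inner ring. The mean of all 29 members other than Nup210, these 4 included, was 8.795 at most in wild-type and 8.802 at least in double knockout livers. The mean of the lamina and inner nuclear membrane genes described further on did not overlap in the other direction (8.67 to 8.71 against 8.63 to 8.66).

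Central channel nucleoporins carry the phenylalanine-glycine repeats that receptors bind. Nup98, a mobile channel nucleoporin whose transcript also encodes the outer ring protein Nup96, stood at 9.78, 9.79, 9.83, 9.70 and 9.75 in wild-type and at 9.85, 9.87, 9.88, 9.85 and 9.88 in double knockout livers. All double knockout livers were above all wild-type livers, but the log2 difference was small at 0.095 (SE 0.04, limma adjusted p = 0.256). Nup54, part of the channel trimer, had 0.010 (SE 0.05, 95% interval -0.10 to 0.12).

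On the cytoplasmic face, where messenger RNA leaves the pore, 4 of 5 members had higher means and 0 were called. Nup214, a docking site for export complexes, stood at 8.90, 9.01, 9.01, 8.93 and 9.01 in wild-type and at 9.03, 9.17, 9.09, 9.19 and 9.04 in double knockout livers. The groups were just apart, with a log2 difference of 0.13 (SE 0.05, limma adjusted p = 0.221), and of 0.085 with the macrophage covariate. Its partner Nup88 had 0.023, the messenger RNA export factor Rae1 0.063, the filament protein Ranbp2 0.022 and Aaas, which encodes aladin, -0.038. In these 4 genes the groups overlapped, with limma adjusted p from 0.590 to 0.894.

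Of the 3 nuclear basket members listed, 2 were measured, Tpr being without a probe set, and both showed little difference. Nup153, which anchors the basket, stood at 10.15, 10.00, 9.99, 9.97 and 10.11 in wild-type and at 10.02, 10.10, 10.08, 10.09 and 10.13 in double knockout livers. These values overlapped, with a log2 difference of 0.042 (SE 0.05, 95% interval -0.06 to 0.14, limma adjusted p = 0.742). Nup50, its mobile partner, had 0.033 (SE 0.05, limma adjusted p = 0.815).

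Of the 6 transport factors 4 had higher means and 0 were called, with a median log2 difference of 0.12. Ran stood at 8.05, 8.20, 8.35, 8.22 and 8.06 in wild-type and at 8.38, 8.25, 8.42, 8.51 and 8.58 in double knockout livers. Only double knockout replicate 2 lay within the wild-type range. The log2 difference was 0.25 (SE 0.07, 95% interval 0.09 to 0.41, limma adjusted p = 0.133). Rangap1, which switches Ran to its GDP form at the cytoplasmic face, stood at 9.37, 9.34, 9.23, 9.12 and 8.99 in wild-type and at 9.31, 9.78, 9.45, 9.38 and 9.50 in double knockout livers. Its groups overlapped through double knockout replicate 1, and double knockout replicate 2 was the highest. The log2 difference was 0.27 (SE 0.09, 95% interval 0.07 to 0.48, limma adjusted p = 0.189). It was 0.12 (SE 0.11) with the olfactory receptor covariate and 0.13 (SE 0.06) without the 4 livers of high pancreas marker mean.

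The importins and the exportin among the members were not called either. Kpna2, an importin alpha abundant in dividing cells, had 0.13 (SE 0.06, limma adjusted p = 0.293), and the mean of 11 proliferation markers was 6.15 to 6.26 in wild-type and 6.20 to 6.44 in double knockout livers, with 0 of them called. Kpnb1, importin beta, had log2 differences of 0.10, 0.11 and 0.094 on its 3 probe sets, and on the first of them 0.033 with the macrophage covariate and 0.042 without the 4 livers of high pancreas marker mean. Kpna1, another importin alpha, had -0.087 (SE 0.06), and the exportin Xpo1 had -0.036 (SE 0.08), with values that overlapped between the groups. The covariate and exclusion values given so far were ones that shrank, while other members grew. By the measure given further on, 12 of the 29 members other than Nup210 were smaller or reversed and 7 larger with the macrophage covariate. These counts were 10 and 8 with the olfactory receptor covariate, and 5 and 10 without the 4 livers. Over all alternatives Nup205 ran from 0.14 to 0.26, Kpna2 from 0.10 to 0.21 and Rae1 from 0.041 to 0.13.

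**Figure D3:**
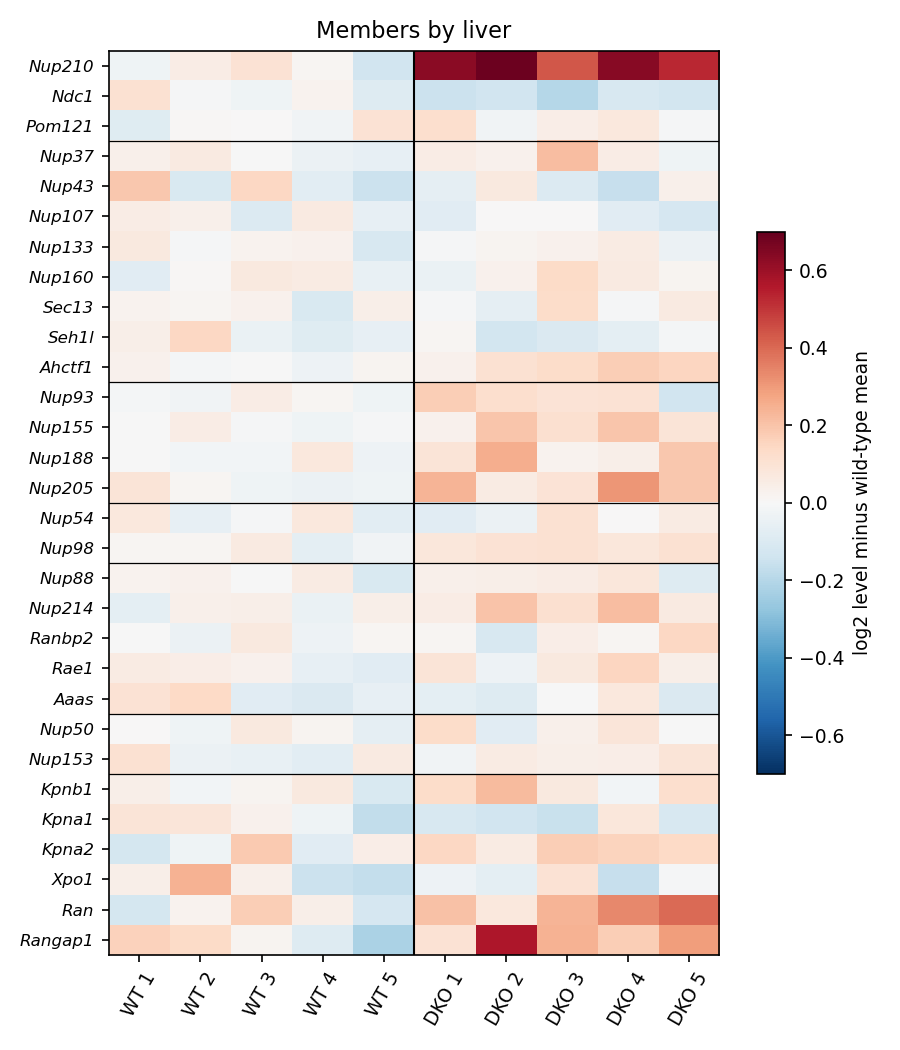
Log2 level of each measured member in each liver minus the mean of that gene in wild-type livers, in 5 wild-type (WT) and 5 double knockout (DKO) livers; red is higher and blue lower, and black lines separate the positions in the pore. The Nup210 row is red in all 5 double knockout livers, the Ran and Rangap1 rows are paler and uneven, and the Ndc1 row is blue.

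Nup210 was set against the mean of the other 29 measured members within each liver, since both come from the same array. This difference lay between -0.58 and -0.43 in wild-type and between -0.13 and 0.14 in double knockout livers, a shift of 0.53 on the log2 scale. The mean of the 29 members itself shifted by 0.052, from 8.71 to 8.80 in wild-type to 8.80 to 8.83 in double knockout livers.

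Within the groups the members varied only loosely together. After the group mean was subtracted from each value, the median Pearson r over the 435 pairs of members was 0.10 across the 10 livers. Nup210 had its highest r with Kpna1 (0.53) and its lowest with Sec13 (-0.66). Among 12028 other probe sets above the olfactory 95th percentile, those most like Nup210 by this measure belonged to Syne1 (r = 0.94), Bzw2 (0.94), Nckap5 (0.92), Ogfr (0.91) and Pds5a (0.90). Syne1 encodes nesprin-1, a giant protein of the outer nuclear membrane, and Pds5a a regulator of cohesin. The Syne1 probe set was 1 of 59 of that gene, and the one with the highest mean had an r of 0.72. Between the groups these 5 probe sets had log2 differences of -0.004, -0.073, 0.17, -0.10 and 0.026, in the order given. These correlations describe 10 arrays that share processing and are the extremes of many.

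Other genes of the pathway were taken from lists written by function. Of 58 measured genes 0 were called in limma, and at an unadjusted p under 0.05 there were 5 higher (8.62%) and 1 lower (1.72%), against 7.52% and 7.60% of all tested probe sets, with 29 above 0 and 29 below. Of 15 further importins 9 had higher means, and Ipo4, which carries histones and ribosomal proteins, had 0.23 (SE 0.05, limma adjusted p = 0.0557) on its main probe set and 0.035 on the other. Among 12 genes of messenger RNA export 8 had higher means, and the helicase Ddx39a had 0.21 (SE 0.05, limma adjusted p = 0.0614). For both genes, and for the importin Ipo13 (0.21, SE 0.06, limma adjusted p = 0.109), every double knockout liver lay above every wild-type liver. Over all tested probe sets the groups did not overlap in 1.75% that were higher and 2.15% that were lower. Of 6 further exportins 4 had higher means (Xpo7, 0.063), as did all 3 genes of the Ran cycle (Ranbp1, a cofactor of Rangap1, 0.11). Of 5 remaining nucleoporins and related membrane proteins 1 had a higher mean, the ER membrane protein Tmem33 (0.11), while Nup210l, the paralog of Nup210 known from testis, had -0.014 at a level below the olfactory 95th percentile. In the lamina and inner nuclear membrane, 13 of 17 genes had lower means. Sun1, which spans the inner membrane and binds nesprins, stood at 8.59 to 8.73 in wild-type and 8.29 to 8.52 in double knockout livers, a log2 difference of -0.21 (SE 0.05, limma adjusted p = 0.0796). The lamins had -0.083 for Lmna, -0.003 for Lmnb1 and 0.068 for Lmnb2.

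Genes beside Nup210 on chromosome 6 were examined for position, with gene order from the RefSeq table of GRCm38.p6. On one side lie Iqsec1, Slc41a3 and Aldh1l1, in order of distance. Iqsec1, a guanine nucleotide exchange factor for the GTPase ARF6 and the nearest of them, fell by 0.29 on the log2 scale (SE 0.05, limma adjusted p = 0.0212), from 8.89 to 9.00 in wild-type to 8.60 to 8.78 in double knockout livers. Iqsec1 lost its call without wild-type replicate 2 or double knockout replicate 3, 4 or 5 (limma adjusted p from 0.0160 to 0.0637 over the 10 fits without 1 liver), and with a covariate for macrophage markers (limma adjusted p = 0.127). Slc41a3 had -0.40 (SE 0.13, limma adjusted p = 0.179) and Aldh1l1, of folate metabolism, -0.28 (SE 0.07, limma adjusted p = 0.108), and their groups overlapped. On the other side the deacetylase Hdac11 had -0.071 on the one of its 2 probe sets with the higher mean. Fbln2 (fibulin-2) had -0.15 and Wnt7a 0.068, and none of the genes on this side was called (limma adjusted p from 0.341 to 0.763). Nup210 and Wnt7a thus had log2 differences above 0 and the other 5 below it, and the called neighbour was lower.

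**Figure D4:**
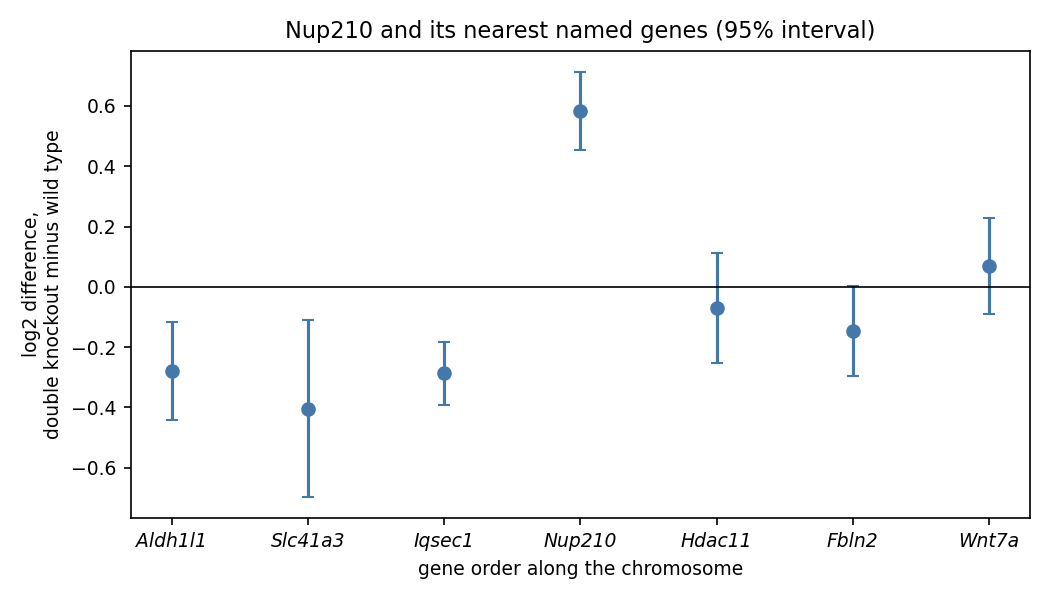
Log2 difference between double knockout and wild-type livers for Nup210 and the 3 nearest named protein-coding genes on either side, in their order along the chromosome, with 95% intervals from the limma fit. Nup210 (0.58) is above 0, while Iqsec1 (-0.29), Aldh1l1 (-0.28) and Slc41a3 (-0.40) are below it.

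Markers of other cells were read beside Nup210. Macrophage markers were higher in double knockout livers: all 15 had higher means, and the mean over the list was 8.79 to 9.10 in wild-type and 9.02 to 9.35 in double knockout livers. Of the 15, 2 were called higher in limma, against 0.332% of all tested probe sets. At an unadjusted p under 0.05, 9 of the 15 (60%) were higher and 0 lower, against 7.52% and 7.60% of all tested probe sets. All 15 lay above the olfactory 95th percentile. With this mean as a covariate Nup210, listed for its difference, had a log2 difference of 0.51 (SE 0.09), given as a description. It was no longer called, which left 0 of 30 members called. The same covariate lowered the calls over all probe sets from 84 higher and 140 lower to 7 and 7. The marker mean was itself higher on average in double knockout livers, and its part in the Nup210 difference was not tested. The marker means were 8.82, 8.79, 8.96, 9.10 and 8.87 in wild-type replicates 1 to 5 and 9.06, 9.35, 9.13, 9.16 and 9.02 in double knockout replicates 1 to 5. Double knockout replicate 2 was the highest in both the marker mean and Nup210. Within the groups the r of Nup210 with the marker mean was 0.39 over 10 livers.

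Lymphocytes, in which Nup210 is known to act, gave low signals. Of 11 markers of T and NK cells 6 were above 0 in their log2 difference, with 0 called and 3 above the olfactory 95th percentile, and a list mean of 5.95 to 6.07 in wild-type and 6.01 to 6.17 in double knockout livers. For B and plasma cells this was 1 of 7 (6.56 to 6.83 against 6.45 to 6.64), for endothelium 9 of 12 (9.46 to 9.55 against 9.50 to 9.62) and for erythroid cells 3 of 5 (6.41 to 6.64 against 6.42 to 6.64), with 0 called in each. Hepatocyte markers had high levels in both groups (12.90 to 13.05 against 12.91 to 12.98), with 0 of 12 called. Within the groups the r of Nup210 over the 10 livers was 0.67 with the endothelial mean, 0.66 with the erythroid mean and 0.60 with the hepatocyte mean, above that with macrophage markers, and ran from -0.10 to 0.29 for pancreas, B and plasma cell, T and NK cell and proliferation markers. The part of these cells in the Nup210 difference was not tested beyond these values.

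**Figure D5:**
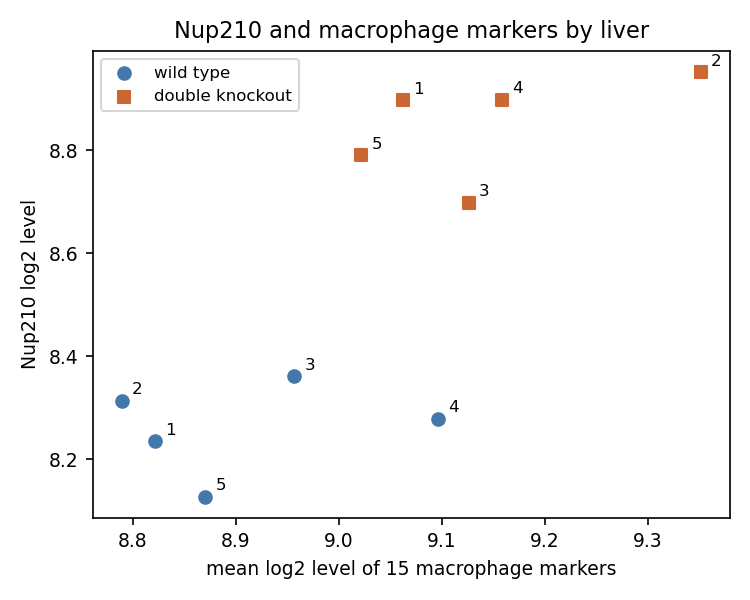
Log2 level of Nup210 against the mean log2 level of 15 macrophage markers in each liver, 5 wild type (circles) and 5 double knockout (squares), numbered by replicate. The marker means of the groups overlap between 9.02 and 9.10, and the Nup210 levels of the groups do not overlap.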

How the data were processed

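Labelled cDNA of total liver RNA was hybridised to 1 array per sample, per the labels. The authors deposited log2 expression levels per probe set, for which the submitters' processing notes name Affymetrix Expression Console. Its version, summarisation and normalization are not stated in the labels. Quartiles differed by at most 0.046 between the 10 arrays, so the deposited log2 values had been normalized between arrays. No further normalization was applied. Scanner files and scan dates were not analysed here.

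Rows were named through the platform annotation: 23521 had 1 symbol and 1814 several. Groups were compared in limma 3.58.1 under R 4.3.3 (lmFit, eBayes, two-sided, group as the only term), with Benjamini-Hochberg adjustment over 25335 rows and calls at 0.05. The fit was tested on simulated data. The number of arrays limits the precision. Members, lists and tests were chosen with earlier results of these data known. Genes given liver by liver were Nup210 and, per position in the pore, the gene of lowest p, and Ndc1, Pom121 and Rangap1, chosen after their values were seen. Protein sequences were not used here.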

Additional observations from a re-analysis of the deposited data

Results flagged for a closer look

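Among 60 groups of 5 livers (30 members in 2 groups), 5 held a liver set apart from the other 4, its gap to the nearest being more than 0.71 of the whole range of the group. Chance flags about 1 in 20 groups. Sec13 was lowest in wild-type replicate 4, at 9.87 against 9.99 for the nearest liver (0.818 of the range). Nup93 and Nup88 were lowest in double knockout replicate 5, at 7.69 against 7.92 (0.754 of the range) and at 8.94 against 9.06 (0.754 of the range). Kpna1 was highest in double knockout replicate 4, at 9.47 against 9.28 (0.81 of the range), and Kpna2 was lowest in double knockout replicate 2, at 8.80 against 8.89 (0.726 of the range). Nup210 had no such liver in either group.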

How the results depend on the processing

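Nup210, listed for its difference, had log2 differences from 0.49 to 0.62 over the alternatives, given as a description. Its value was 0.51 with a covariate for macrophage markers, which left 0 members called higher, and 0.55 to 0.62 without each liver in turn. The other 29 members had 0 calls in 24 alternatives, an adjusted p under 0.1 over all tested probe sets included. With rows above the olfactory 95th percentile only, limma adjusted p was under 0.1 for Ran (0.0890), Ndc1 (0.0916) and Nup205 (0.0982). Of the 29, 12 had a value smaller by over 1.5 times or of changed sign and 7 one larger by as much with the macrophage covariate, 10 and 8 with the olfactory one, and 5 and 10 without the 4 livers highest in pancreas markers. Other pathway genes, with 0 calls, had 1 higher with an intensity trend, 2 higher and 1 lower among rows above the olfactory 95th percentile, 2 higher and 1 lower at an adjusted p under 0.1, and 0 to 1 higher without single livers. Iqsec1 lost its call with every row of the table (-0.29), the replicate block (-0.29) and the macrophage (-0.32) and olfactory (-0.29) covariates.

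Over all probe sets, 84 were called higher and 140 lower. These counts were 136 and 241 with rows above the olfactory 95th percentile only, 31 and 44 with every row of the table, 257 and 328 at an adjusted p under 0.1, 7 and 7 with the macrophage covariate, 25 and 28 with the olfactory receptor mean as a covariate, and 25 and 43 without the 4 livers highest in pancreas markers, an alternative chosen after the data were seen. Without single livers they ran from 27 to 133 higher and from 37 to 145 lower.

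With the replicate number as a block the counts were 27 higher and 49 lower, and Nup210 kept its value of 0.58. Same-numbered livers had correlations of their deviations from -0.48 to 0.13. The labels do not say what a replicate number stands for, and these correlations cannot settle whether same-numbered livers share anything else.

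Small differences changed sign, and the cause was not tested. With the macrophage covariate Nup133 had -0.019, Nup160 -0.014, Seh1l 0.058, Nup93 -0.0013, Nup54 -0.00071, Nup88 -0.026, Aaas 0.050 and Xpo1 0.090. With the olfactory covariate Nup133 had -0.030, Nup54 -0.065 and Nup88 -0.011. Without those 4 livers Nup133 had -0.011 and Nup88 -0.0037. The second probe set of Seh1l had 0.023. Without single livers Nup43 ran from -0.080 to 0.0051, Nup133 from -0.016 to 0.029, Sec13 from -0.0053 to 0.043, Nup54 from -0.015 to 0.033, Nup88 from -0.0042 to 0.051, Ranbp2 from -0.0098 to 0.055 and Xpo1 from -0.078 to 0.026.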
